A study of Mus musculus with 39 samples.

Results

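Interferon-stimulated genes are the genes that cells switch on when interferons bind their receptors. A list of 44 of them was chosen by name and followed through 39 libraries of primary mouse microglia. All 44 symbols were among the 16144 genes of the count table, all 44 passed the filter on low counts that left 13034 genes, and each had reads in every library, the lowest count being 25.

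The microglia came from neonatal C57BL/6 mice. Cells of 2 brains were grown together for 7 to 10 days in medium with supernatant of L929 cells, and the loosely attached microglia were then shaken off a layer of astrocytes. Donors were incubated for 14 h with 1 µM alpha-synuclein, a neuronal protein found in the Lewy bodies of Parkinson's disease, carrying the dye Atto-488, and were plated at typically 250000 cells per well. Acceptors, for which the labels name no alpha-synuclein, were plated at typically 6000000 cells per flask and stained with CellTracer Violet, a dye that marks living cells, for 15 min. Both populations then shared a culture, without direct contact, for 15, 30, 60, 150 or 300 min, and RNA was collected from each. Each population also had a group at 0 min, as did the control, which makes 13 groups of 3 libraries. No label describes the vessel, density or handling of the control. Alpha-synuclein cannot be told apart from vessel, density and dye when donors are set against acceptors. It cannot be told apart from vessel, density, dye and handling against the control either. The letters TW in the group names are not explained. Whether the libraries of a group came from separate cultures is not given either, so p-values measure the spread between libraries.

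Each library title ends in a number, and these numbers run without a gap. Taken in order they form 3 runs of 13 libraries, each with 1 library of every group. Values of a group are given below in the order run 1, run 2, run 3. What the runs stand for, a culture preparation or a step in the laboratory, is not stated.

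Type I interferons signal through the receptor pair Ifnar1 and Ifnar2. The kinases Jak1 and Tyk2 then act on a complex that holds Stat2 and Irf9 and binds the interferon-stimulated response element, or ISRE. Interferon gamma uses Ifngr1 and Ifngr2, and its signal reaches the gamma-activated site, or GAS. The genes reached in this way encode sensors of foreign nucleic acid, enzymes that block viral replication, GTPases that attack microbes inside vacuoles, and the pathway's own transcription factors. Microglia are among the brain cells that carry such a programme in infection, in ageing and in models of neurodegeneration.

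Promoter sequences are shown for 5 genes because these genes had the largest or the clearest differences, and because they differ in the motif that interferon signalling is known to use. RefSeq gave windows from 250 bases before to 50 bases after the transcript start, on GRCm38.p6, for 34 of the 44 genes. Capitals mark matches to the ISRE-like letters GAAANNGAAA, read on either strand, where the other strand reads TTTCNNTTTC and overlapping matches are each counted.
Isg15, chr4:156200769-156201068, minus strand: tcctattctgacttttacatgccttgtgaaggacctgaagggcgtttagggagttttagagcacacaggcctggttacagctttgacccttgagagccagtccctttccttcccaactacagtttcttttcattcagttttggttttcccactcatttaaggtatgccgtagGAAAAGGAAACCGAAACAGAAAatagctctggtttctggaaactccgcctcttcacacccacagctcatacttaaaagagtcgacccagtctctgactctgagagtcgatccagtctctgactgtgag
Gbp2, chr3:142620413-142620712, plus strand: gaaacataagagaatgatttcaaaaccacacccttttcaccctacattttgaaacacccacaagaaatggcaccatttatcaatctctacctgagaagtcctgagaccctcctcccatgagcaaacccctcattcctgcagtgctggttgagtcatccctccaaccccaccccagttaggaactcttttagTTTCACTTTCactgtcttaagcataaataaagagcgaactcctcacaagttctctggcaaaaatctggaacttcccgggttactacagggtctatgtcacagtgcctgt
Gbp5, chr3:142496684-142496983, plus strand: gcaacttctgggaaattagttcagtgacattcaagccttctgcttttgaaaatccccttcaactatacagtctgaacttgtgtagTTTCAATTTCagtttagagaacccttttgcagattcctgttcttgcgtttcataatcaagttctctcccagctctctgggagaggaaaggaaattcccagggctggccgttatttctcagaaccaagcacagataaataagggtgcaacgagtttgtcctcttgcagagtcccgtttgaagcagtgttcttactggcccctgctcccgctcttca
Rsad2, chr12:26456403-26456702, minus strand: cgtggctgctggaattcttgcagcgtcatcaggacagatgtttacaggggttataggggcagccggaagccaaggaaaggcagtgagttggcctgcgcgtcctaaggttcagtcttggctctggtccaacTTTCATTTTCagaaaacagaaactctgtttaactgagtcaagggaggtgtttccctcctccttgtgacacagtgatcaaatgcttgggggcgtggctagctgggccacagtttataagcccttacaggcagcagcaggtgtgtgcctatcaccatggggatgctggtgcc
Oasl1, chr5:114922990-114923289, plus strand: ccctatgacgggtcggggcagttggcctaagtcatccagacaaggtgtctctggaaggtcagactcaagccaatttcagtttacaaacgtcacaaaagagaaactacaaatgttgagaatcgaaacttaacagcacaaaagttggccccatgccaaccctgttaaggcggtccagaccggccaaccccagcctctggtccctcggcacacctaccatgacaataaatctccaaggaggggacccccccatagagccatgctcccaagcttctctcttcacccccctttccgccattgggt

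Isg15 held 3 overlapping matches, starting 78, 72 and 66 bases before the start site. Gbp2 held 1, starting 59 bases before it, Gbp5 held 1 and Rsad2 held 1. Oasl1, which had the highest fold change of the 44 against control and over all times, held 0 in this window, which says only that these letters are not in it. Of the 34 genes with a window, 19 (55.9%) held a match, against 3.99% of 27025 genes with windows of the same length. The GAS-like letters TTCNNNGAA, which read the same on both strands, occurred in 11 of the 34 (32.4%), against 9.55% of all genes. A match is a description of the sequence and not a mapped binding site. 

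The next pair is shown because Ifit3 and Ifit3b lie in the same 99.3 kb of chromosome 19, carry the same stretch upstream, and had different values. Capitals again mark the ISRE-like letters.
Ifit3, chr19:34583367-34583422, plus strand: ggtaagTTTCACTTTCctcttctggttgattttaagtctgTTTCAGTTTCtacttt
Ifit3b, chr19:34607763-34607818, plus strand: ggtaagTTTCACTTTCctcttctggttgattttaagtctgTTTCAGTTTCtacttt

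All 56 positions were identical. The last 400 bases of the Ifit3 transcript share 5.65% of their stretches of 100 bases with Ifit3b, and those of Oas1a share 21.3% with Oas1g, so reads of these genes could have been split between copies. No other gene of the list shared such a stretch with another gene in the annotation used.

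Donor libraries held 8753743 to 15910662 reads, acceptor libraries held 8649169 to 14743934, and the control held 10249066 to 11587525. The 44 genes together took between 2.24% and 3.48% of donor reads, between 0.755% and 1.88% of acceptor reads and between 0.794% and 2.29% of control reads. Most microglial marker genes were lower in donors. Summed CPM (counts scaled to a common library total) over 8 microglial markers lay between 1154 and 1643 in donors, between 4372 and 12862 in acceptors and between 4432 and 5368 in the control. The acceptor maximum came from 1 library, run 1 at 300 min, and the next highest was 6039 CPM. Csf1r made up the largest part of the sum, with means of 419 CPM in donors, 3319 CPM in acceptors and 3118 CPM in the control. P2ry12 and Tmem119, markers of microglia in the brain, averaged 1.39 and 1.93 CPM in donors, 4.60 and 6.91 CPM in acceptors and 5.69 and 6.37 CPM in the control. Itgam, another of the 8, went the other way, with means of 200 CPM in donors, 179 CPM in acceptors and 151 CPM in the control. Of 5 neutrophil markers 2 were in the table, and their sum was between 14.2 and 93.3 CPM in donors, at most 2.23 CPM in acceptors and at most 1.24 CPM in the control. S100a8 carried this sum, with means of 37.2 CPM in donors, 0.424 CPM in acceptors and 0.482 CPM in the control. Mpo, the other gene, averaged only 0.0546 CPM in donors. Of 6 fibroblast and vascular markers 4 were in the table, with sums between 10.9 and 21.3 CPM in donors, at most 4.40 CPM in acceptors and at most 1.17 CPM in the control. Dcn and Pecam1 carried the donor sum, with means of 6.27 and 6.44 CPM in donors and 0.140 and 0.630 CPM in acceptors. Col1a1 and Col1a2 averaged 0.339 and 0.383 CPM in donors and 0.475 and 0.409 CPM in acceptors. The donor and acceptor means of Col1a2 are so close that TMM scaling could reverse their order, so no direction is read for it. Of 7 T and NK cell markers only Cd3d was in the table, and it reached at most 0.687 CPM. The part of these cell types in the results below was not tested. In bulk RNA, fewer cells of a type and less RNA per cell cannot be told apart.

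**Figure D1:**
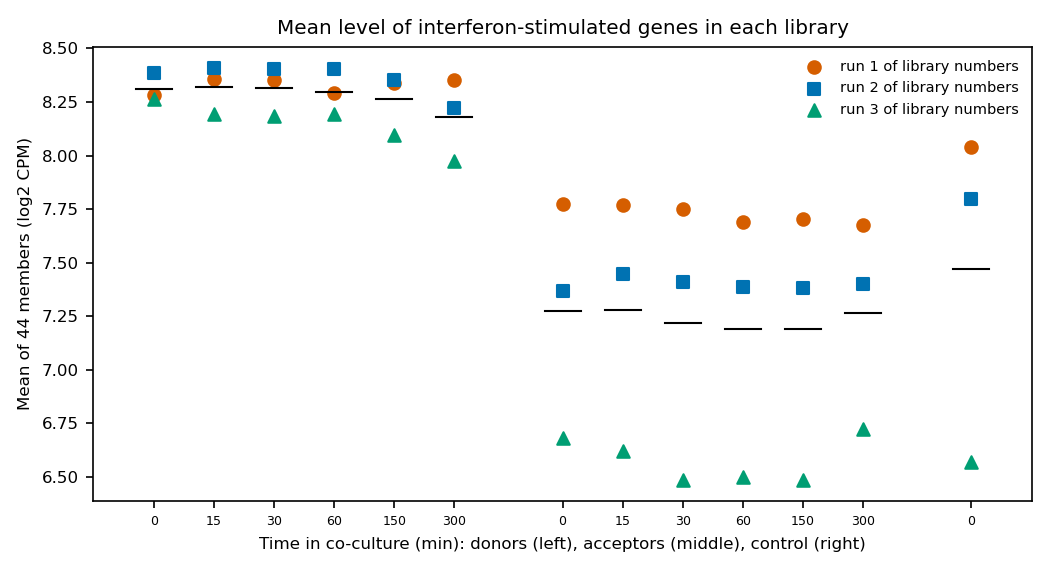
Mean log2 CPM of the 44 genes in each of the 39 libraries, by time in minutes, for donors, acceptors and control, with the colour and shape giving the run of library numbers and the black bar the mean of a group. Donor libraries lie between 7.97 and 8.41, acceptor libraries between 6.49 and 7.77, and run 3 is lowest in every acceptor group and in the control.

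Donors were first compared with control at 0 min, before any shared culture. Donors had spent 14 h with alpha-synuclein, but their plating, dye and handling cannot be separated from it here. The genes that rose belonged mainly to 3 kinds: guanylate-binding GTPases, the ISG15 system, and the antiviral genes Oasl1 and Rsad2. Of the 44 genes, 10 rose and 0 fell (edgeR quasi-likelihood test, Benjamini-Hochberg adjusted over 13034 genes, threshold 0.05), while 10.3% of all genes were called higher and 9.34% lower. The median log2 fold change of the 44 was 0.68, and that of all genes was −0.03. Without adjustment 16 genes had p under 0.05. This fit ignores the runs of library numbers. With a term for the run added to it (the run as a block), 21 of the 44 were called, among them the same 10. In that fit 12.6% of all genes were called higher. In 21 genes all 3 donor values lay above all 3 control values, which held for 17.4% of all genes, and in 0 they lay below, against 17.7% of all genes.

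Oasl1, an oligoadenylate synthetase-like protein that in the mouse represses translation of Irf7 messenger RNA (chromosome 5, 114923240 to 114937915, GRCm38), had 605, 654 and 663 CPM in donors. In the control it had 173, 92.2 and 40.8 CPM. The groups did not overlap, donor libraries were alike, and control libraries fell apart by run. The fitted difference was 2.65 ± 0.52 log2 units (SE; edgeR Benjamini-Hochberg adjusted p = 0.000322), a fold of 6.27.

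Gbp2, a guanylate-binding protein that helps rupture vacuoles holding microbes (chromosome 3, 142620602 to 142638008), had 1121, 697 and 1320.5 CPM in donors and 380.5, 228 and 69.9 CPM in the control. It was 2.21 ± 0.49 log2 units higher (edgeR Benjamini-Hochberg adjusted p = 0.00142). Gbp5, a relative known in macrophages to promote inflammasome assembly (chromosome 3, 142493978 to 142522344), had 40.1, 80.3 and 78.1 CPM in donors and 25.0, 20.3 and 7.76 CPM in the control. Neither gene's groups overlapped, and in both the control library of run 3 was the lowest value. Gbp5 was 1.90 ± 0.49 log2 units higher (adjusted p = 0.00512), and without the control library of run 3 its adjusted p was 0.0507. Gbp3 and Gbp7, 2.82 and 2.46-fold higher, also rose, so all 4 guanylate-binding genes of the list were called. They lie within 144 kb of each other. Gbp3 lost its call without any of 4 single libraries (the control of run 2 or 3, the donors of run 1 or 3; adjusted p 0.0736 to 0.192), and Gbp7 without either of 2 (0.207 without the control of run 3, 0.162 without the donors of run 2).

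Isg15, a ubiquitin-like protein attached to other proteins or secreted (chromosome 4, 156199424 to 156200818), had 5553, 3821 and 4782 CPM in donors and 1776, 1347 and 389.7 CPM in the control. It was 2.01 ± 0.47 log2 units higher (edgeR Benjamini-Hochberg adjusted p = 0.00235). Usp18, the protease that removes Isg15 from its targets and restrains the type I receptor, had 453, 443 and 445 CPM in donors and 231, 219.9 and 61.3 CPM in the control (1.39 log2 units, adjusted p = 0.0474). The 3 donor values of Usp18 were close to each other, and the control of run 3 was far below the other two. Its call was lost without any of 5 single libraries, all but the control of run 1 (adjusted p 0.0592 to 0.242).

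Rsad2, or viperin, which makes a chain-terminating nucleotide (chromosome 12, 26442746 to 26456452), had 7792, 17431 and 5712 CPM in donors and 2967, 2462 and 412 CPM in the control. It was 2.40 ± 0.69 log2 units higher (edgeR Benjamini-Hochberg adjusted p = 0.0120), with an adjusted p of 0.0798 without the control of run 3 and 0.0865 without the donors of run 2. Its neighbour Cmpk2, a mitochondrial nucleotide kinase within 37.1 kb, had 1995, 2282 and 1527 CPM in donors and 1143, 819.6 and 155 CPM in the control. The values of Cmpk2 did not overlap, but its difference of 1.45 log2 units was not called (adjusted p = 0.163).

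Rtp4, a chaperone of receptors that in the mouse also dampens interferon responses (chromosome 16, 23520291 to 23614222), had 863, 689.7 and 900.4 CPM in donors and 486, 448 and 386 CPM in the control. It was 0.89 ± 0.24 log2 units higher (edgeR Benjamini-Hochberg adjusted p = 0.00647). Irf9, the DNA-binding subunit of the type I complex, had 264, 257 and 225 CPM in donors and 149, 148 and 149 CPM in the control, the most even control values of the 44. It was 0.74 ± 0.26 log2 units higher (adjusted p = 0.0375). These 2 genes differed little between runs in the control, unlike the genes before them. The call of Irf9 was lost without any of 5 single libraries, all but the donors of run 3 (adjusted p 0.0825 to 0.101).

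The other groups of the list gave fewer calls. None of the 4 sensor genes Ifih1, Ddx58, Dhx58 and Zbp1, which detect foreign RNA or unusual nucleic acid, was called, and Dhx58 was nearest at 0.72 log2 units (adjusted p = 0.0800). None of the 4 Ifit genes, whose proteins bind viral RNA, was called, with differences of −0.77 to 1.28. Of the 5 Oas genes only Oasl1 was called, and Oas3, a synthetase of the messenger that activates RNase L, stood at −0.06. Neither Mx1 nor Mx2, dynamin-like GTPases, nor Bst2, which tethers budding virus, was called. Background on Mx1 is that most inbred mouse strains carry a defective copy. The gene annotation used lists Mx2 as a polymorphic pseudogene. Parp9, Parp14 and Dtx3l, ADP-ribosylation enzymes and a partner, stood at 0.06 to 0.88 with 0 calls. The immunity-related GTPases Igtp, Irgm1, Iigp1 and Ifi47 stood at 0.02 to 0.70 with 0 calls.

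Some genes of the list pointed the other way without being called. Ifit3b had 186, 111 and 177 CPM in donors and 375, 334 and 98.6 CPM in the control, a difference of −0.77 with a 95% interval of −1.65 to 0.11. Irf1, a transcription factor induced early by interferon gamma, had 106, 117 and 121 CPM in donors and 209, 174 and 87.6 CPM in the control, a difference of −0.45 with an interval of −0.93 to 0.03. In both genes the control of run 3 lay below the donors and the other two control libraries lay above them. With all libraries of run 3 left out, a setting chosen after seeing the data, both genes were called lower. Ifit3b stood at −1.26 and Irf1 at −0.78 log2 units (edgeR adjusted p = 0.00251 and 0.0424). In that fit 9 genes were higher, where 5.85% of all genes were called higher. With total-count scaling Irf1 was also called lower. That scaling moved the median of all genes by −0.36 log2 units. It gave 5 genes higher and 1 lower, where 5.67% of all genes were called higher. The median of the 44 stood 0.72 above that of all genes, against 0.71 with TMM scaling.

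The number of calls depended on single libraries. Without the control of run 3, 4 genes were called higher and Irf1 lower (−0.74 log2 units, edgeR adjusted p = 0.0344), and without the donors of run 2, 6 were higher. Oasl1, Gbp2 and Isg15 kept their call in every alternative run.

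**Figure D2:**
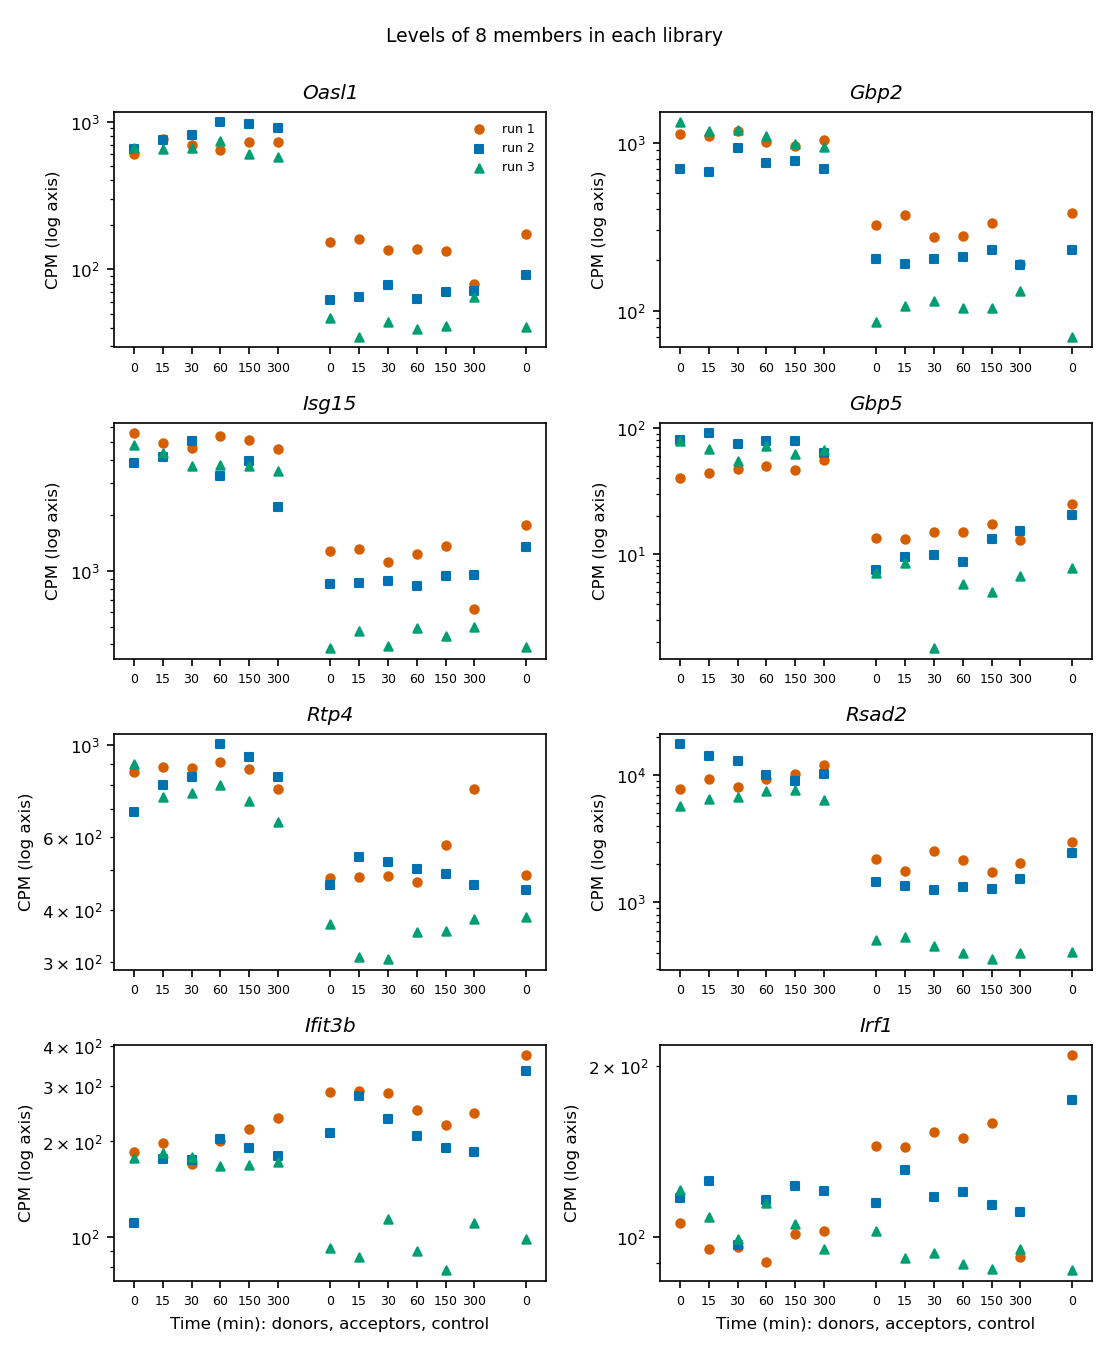
CPM on a log axis in each of the 39 libraries for 8 genes, by time in minutes, for donors, acceptors and control from left to right, with the colour and shape giving the run. In Oasl1, Gbp2, Isg15, Gbp5 and Rsad2 all 18 donor values lie above all 18 acceptor values, while in Ifit3b and Irf1 the populations overlap.

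Within the runs, the difference between donors and control was uneven. The median of the 44 differences at 0 min was 0.16 log2 units in run 1, 0.48 in run 2 and 1.44 in run 3, and 5, 11 and 30 genes were more than 2-fold higher in donors. Over all genes the share past 2-fold higher was 13.4%, 17.1% and 15.7% in the same runs. Donors exceeded the control in all 3 runs in 28 genes, which held for 26.3% of all genes, and were below it in all 3 runs in 0. Run by run the ISG15 system stood at 1.31, 1.26 and 3.24 log2 units, the GTPases at 0.41, 1.04 and 2.26, and the Ifit genes at −0.12, −0.05 and 2.22 (medians of each set). With 1 library of each group in a run, these differences have no test.

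Donors were next compared with acceptors at 0 min. Of the 44 genes, 15 rose and 0 fell, and 12.1% of all genes were called higher and 10.7% lower. The median log2 fold change was 0.75, and 25 genes had all 3 donor values above all 3 acceptor values, which held for 19.5% of all genes, and 0 had them below, against 19.7%. These values share the donor libraries with the comparison above. The 12 genes with the smallest adjusted p, by edgeR's quasi-likelihood test, were Gbp5 (2.84 log2 units), Oasl1 (2.88), Isg15 (2.49), Gbp2 (2.36), Rsad2 (2.90), Usp18 (1.97), Rtp4 (0.90), Gbp3 (1.71), Gbp7 (1.44), Ifit1 (2.01), Mx2 (1.37) and Dhx58 (0.89). The other 3 called were Slfn2, Oasl2 and Cmpk2, at 0.93, 0.53 and 2.03 log2 units. The count was 7 without the acceptors of run 3 and 9 without the donors of run 2. With total-count scaling it was 9, and 6.74% of all genes were called higher. With the run as a block it was 29, and 14% of all genes were called higher. Gbp5, Oasl1, Isg15, Gbp2 and Rtp4 kept their call in every alternative.

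Over all 6 times together, the mean of the donor groups was compared with the mean of the acceptor groups. Of the 44 genes, 34 rose and 0 fell, while 29.5% of all genes were called higher, 33% lower and 62.6% in either direction. In 11 genes all 18 donor values lay above all 18 acceptor values, against 5.70% of all genes: Isg15, Ifit2, Rsad2, Mx1, Mx2, Oasl1, Oasl2, Usp18, Gbp2, Gbp5 and Cmpk2. The test treats the 36 libraries as separate, although acceptor libraries of one run deviated together. With the counts of the 6 times summed within each run, which leaves 3 donor and 3 acceptor samples, 24 genes were called. This setting was chosen after seeing the data. The share of all genes called in it is not given, so the 24 cannot be set against that share. The calls lost were those of Irf7, Ifih1, Irgm1, Stat2, Ifi35, Ifi47, Ddx58, Parp9, Eif2ak2 and Ifit3 (edgeR adjusted p = 0.0669, 0.0754, 0.0990, 0.106, 0.109, 0.143, 0.168, 0.183, 0.247 and 0.255 in that order), each still higher in donors.

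Oasl1 had 574, 708 and 991 CPM as the lowest, median and highest of 18 donor libraries, and 34.9, 67.5 and 159 CPM in 18 acceptor libraries. It was 3.15 ± 0.22 log2 units higher in donors (edgeR Benjamini-Hochberg adjusted p = 2.08e-14), the highest fold of the 44. Gbp5 had 40.1, 65.1 and 90.7 CPM in donors and 1.79, 9.56 and 17.3 CPM in acceptors (2.65 ± 0.21 log2 units, adjusted p = 5.03e-13). Both ranges stood well apart. Isg15 had 2203, 4232 and 5553 CPM in donors and 384, 856 and 1371 CPM in acceptors (2.35 ± 0.20 log2 units, adjusted p = 2.67e-12). Gbp2 had 666, 994 and 1320.5 CPM in donors and 86.0, 196 and 371 CPM in acceptors (2.27 ± 0.20 log2 units, adjusted p = 1.26e-11). Rsad2 had 5712, 9085 and 17431 CPM in donors and 361, 1326 and 2546 CPM in acceptors (2.88 ± 0.29 log2 units, adjusted p = 1.87e-10). In these 5 genes the lowest donor library exceeded the highest acceptor library.

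The next 7 genes by adjusted p were Usp18 (1.98 log2 units), Rtp4 (0.84), Gbp3 (1.69), Mx2 (1.42), Dhx58 (0.93), Gbp7 (1.39) and Oasl2 (0.59). By role, all 8 GTPases rose (median 1.27 log2 units), as did all 5 nucleotide and RNA enzymes (1.11), among them Isg20, an exonuclease, Samhd1, which depletes nucleotides, and Eif2ak2, the kinase PKR. Both genes of the ISG15 system rose (1.98 and 2.35). Of the 4 regulators, Irf7, Irf9 and Stat2 rose by 0.74, 0.70 and 0.55 log2 units, and Irf1 did not pass the test at −0.12. Of the 4 sensors, Dhx58, Ifih1 and Ddx58 rose by 0.93, 0.66 and 0.52. Zbp1 did not pass the test. With the times summed within runs, Irf7, Stat2, Ifih1, Ddx58, Ifi47, Irgm1 and Eif2ak2 of these roles lost their call, and Irf9 and Dhx58 kept it. Eif2ak2 was the weakest of the calls, at 0.34 log2 units (adjusted p = 0.0323). It was lost without any of 11 single libraries (adjusted p 0.0520 to 0.0742): the acceptors of run 3 at each of the 6 times, the donors of run 1 at 60, 150 and 300 min, and the donors of run 2 at 0 and 30 min.

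Families split within themselves. Of the 4 Ifit genes on chromosome 19, within 99.3 kb, Ifit1 rose by 1.92, Ifit2 by 1.17 and Ifit3 by 0.52 log2 units, and Ifit3b did not pass the test at −0.07. Ifit3b had 111, 179 and 238 CPM as the lowest, median and highest in donors and 78.5, 210.3 and 289 CPM in acceptors, so that the donor values lay inside the acceptor range, although its upstream stretch equals that of Ifit3. Of the Oas family, Oasl1 and Oasl2, within 41.0 kb, rose by 3.15 and 0.59. Oas1a, Oas2 and Oas3, synthetases of the same chromosome within 177 kb, did not pass the test, at 0.32, 0.12 and −0.05. The remaining genes that did not pass it were Irf1, Zbp1, Bst2, Dtx3l, Ifi44 and Slfn5. ISRE-like letters were found in 14 of the 26 called genes with a window (53.8%) and in 5 of the 8 genes with a window that were not called (62.5%). With total-count scaling, which moved the median of all genes by −0.34, 26 genes were higher, and Ifit3b, Irf1, Oas2 and Oas3 were called lower. In that fit 17.3% of all genes were called higher.

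**Figure D3:**
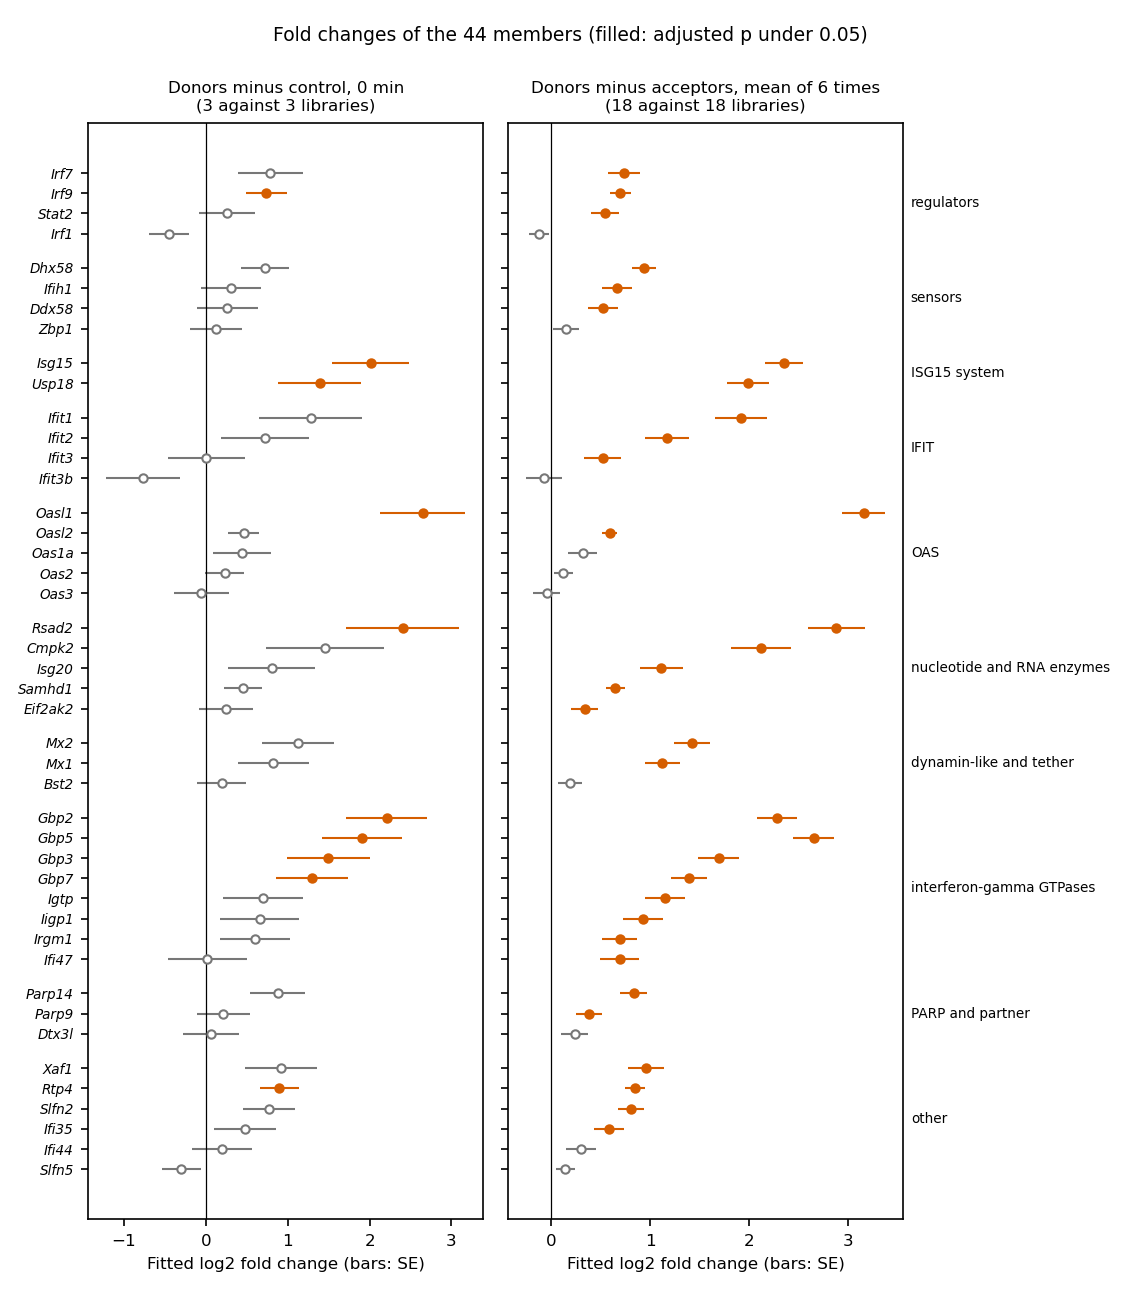
Fitted log2 fold changes with SE bars of the 44 genes, grouped by role, for donors minus control at 0 min (left, 3 against 3 libraries) and for donors minus acceptors over the mean of 6 times (right, 18 against 18 libraries). Filled points mark the 10 genes called at left and the 34 called at right, and none of the filled points lies below 0.

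The populations were also compared at each later time. The number of genes higher in donors was 15 at 15 min, 18 at 30 min, 19 at 60 min, 17 at 150 min and 13 at 300 min, and 0 were lower at any of them. Over all genes 11.7%, 11.9%, 12.5%, 11.8% and 11.4% were called higher at these times, and 10.2%, 10.8%, 9.69%, 10.2% and 11.6% lower. Oasl1, Isg15, Rsad2, Cmpk2, Usp18, Gbp2, Gbp3, Gbp5 and Gbp7 were called at all 5. The 12 smallest adjusted p at each time belonged to Oasl1, Gbp5, Isg15, Gbp2, Rsad2 and Usp18 and to 6 more genes. These were Rtp4, Oasl2, Mx2, Gbp7, Irf9 and Gbp3 at 15 min, Rtp4, Gbp3, Dhx58, Ifit1, Mx2 and Samhd1 at 30 min, and Rtp4, Dhx58, Irf9, Oasl2, Gbp3 and Mx2 at 60 min. At 150 min they were Oasl2, Rtp4, Dhx58, Mx2, Gbp7 and Parp14, and at 300 min Ifit1, Gbp3, Gbp7, Mx1, Oasl2 and Cmpk2. The remaining calls lay between 0.62 log2 units for Samhd1 at 300 min and 2.26 for Cmpk2 at 150 min. Oasl1 stood at 3.06, 3.07, 3.31, 3.23 and 3.37 log2 units over the 5 times.

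The levels in unloaded cells split by run. In 34 of the 44 genes the run 3 library was the lowest of its group in the control and in all 6 acceptor groups, a pattern found in 3.61% of all genes. In all 6 donor groups run 3 was the lowest in 14 genes, against 2.69% of all genes. The fold of run 1 over run 3, from log2 means over the 6 times, had a median of 1.14 in donors and 2.26 in acceptors. It was past 2-fold in 1 gene in donors and in 27 in acceptors, where 2.82% and 3.08% of all genes were. In the control, with 1 library per run, the median was 2.68 and 30 genes were past 2-fold, against 10.6% of all genes.

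Cmpk2, Rsad2, Igtp, Isg20 and Ifit2 showed the widest run differences in acceptors, 5.78, 4.67, 3.31, 3.22 and 3.19-fold. In donors the same genes stood at 1.66, 1.39, 1.26, 1.09 and 1.26-fold. Slfn5 and Oasl2 were at the other end in acceptors, with 1.13 and 1.18-fold. The mean level of the 44 genes was 8.28 to 8.36 log2 CPM in donors of run 1, 8.22 to 8.41 in run 2 and 7.97 to 8.27 in run 3. In acceptors it was 7.68 to 7.77, 7.37 to 7.45 and 6.49 to 6.72, and in the control 8.04, 7.80 and 6.57. The donor ranges of runs 1 and 2 overlapped, whereas no 2 runs overlapped in acceptors.

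Other measures differed between these libraries too. Summed neuronal markers were 17.5 to 21.7 CPM in acceptors and 15.6 CPM in the control of run 3, and 2.20 to 10.2 CPM in acceptors and 3.60 and 4.60 CPM in the control of runs 1 and 2. In donors of run 3 the sum was 1.41 to 8.08 CPM. Summed astrocyte markers were 18.9 to 29.3 CPM in acceptors of run 3 and 9.47 to 21.2 CPM in those of runs 1 and 2, with Gfap, the defining astrocyte gene, averaging 0.208 CPM in acceptors. The part of other cells in the run difference was not tested. Microglial markers summed to 4423 to 5554 CPM in acceptors of run 3, within the range of runs 1 and 2.

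Because of this split, donors and acceptors were also set side by side within runs. The median difference of the 44 genes over the 6 times was 0.45 log2 units in run 1, 0.80 in run 2 and 1.23 in run 3, with 9, 14 and 27 genes more than 2-fold higher in donors, against 14.0%, 11.9% and 12.6% of all genes. In 21 genes the donor library exceeded the acceptor library in all 18 pairs of the same run and time, which held for 10.5% of all genes. In 15 genes the difference was largest in run 3 at all 6 times, against 2.13% of all genes, among them Gbp2, Gbp3, Usp18, Cmpk2, Ifit2 and Isg20. Oasl1 stood at 2.41, 3.62 and 3.86 log2 units in runs 1, 2 and 3, Rsad2 at 2.18, 3.14 and 3.93, and Isg15 at 2.16, 2.03 and 3.14. Oasl2 stood at 0.69, 0.53 and 0.54, and Parp14 at 0.89, 0.69 and 0.93. With all libraries of run 3 left out, 34 genes were still called higher over all times, and Ifit3b and Irf1 were called lower. In that fit 25.6% of all genes were called higher.

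**Figure D4:**
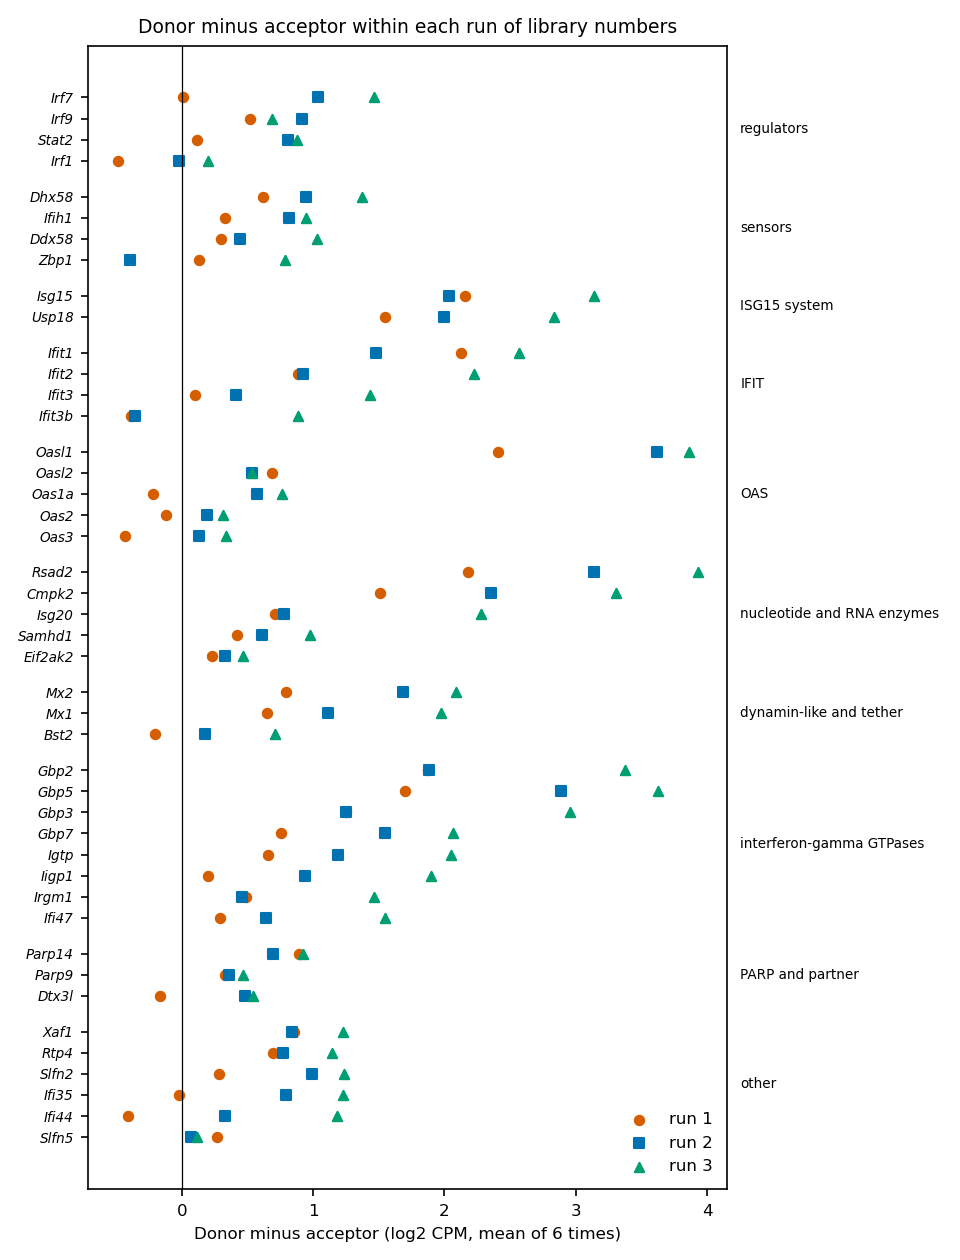
Difference between donor and acceptor log2 CPM, averaged over the 6 times, for each of the 44 genes within runs 1, 2 and 3 of the library numbers, grouped by role. All 44 points of run 3 lie above 0, as do 35 of run 1 and 41 of run 2.

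Time in the shared culture was tested next, which asks whether either population's levels moved after it met the other. None of the 44 genes was called in donors at any of the 5 later times relative to 0 min, and 0 had an unadjusted p under 0.05 by edgeR. In acceptors the counts were also 0 and 0. This fit ignores the runs, whose spread enters its error, so 0 calls does not show that levels stayed the same. At 300 min fitted changes lay between −0.62 and 0.31 log2 units in donors, with 13 of 44 above 0. In acceptors they lay between −0.75 and 0.70, with 22 above 0. Over all genes 0% were called in donors at each time. In acceptors 0% were called at 15 and 30 min, 0.00767% at 60 and 300 min and 0.0153% at 150 min. The F tests of any change over the 6 times gave 0 calls among the 44 in donors and 0 in acceptors, as did the test of a difference between their time courses, with 0%, 0.0153% and 0.0153% of all genes called. DESeq2 and limma-voom also called 0 in each of these tests. In the comparisons of single times with 0 min, DESeq2 gave 0 unadjusted p under 0.05 in donors and 1 in acceptors, and limma-voom gave 0 in both.

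In donors the 3 genes with the lowest p in the F test were Eif2ak2, Xaf1, a pro-apoptotic factor, and Parp9, each with an edgeR adjusted p of 1. Eif2ak2 averaged 60.2, 46.0, 51.8, 41.2, 43.5 and 39.2 CPM in donors at 0, 15, 30, 60, 150 and 300 min. Its 3 donor values were 55.6, 32.4 and 29.6 CPM at 300 min and 60.1, 84.8 and 35.9 CPM at 0 min, so the times overlapped. Xaf1 averaged 191, 151, 188, 116, 137 and 129 CPM in donors over the 6 times. Its donor values were 182, 59.8 and 145 CPM at 300 min and 203, 239 and 132 CPM at 0 min. Parp9 had 98.6, 58.5 and 53.2 CPM in donors at 300 min and 107, 119 and 64.5 CPM at 0 min. In each of the 3 genes the values of the times overlapped. Run by run, Eif2ak2 and Parp9 were lower at 300 min than at 0 min in 3 of 3 runs and Xaf1 in 2 of 3, and with the run as a block the F test in donors also called 0 of the 44.

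In acceptors the 5 genes with the lowest p in the F test were Irf9, Oas1a, Ifi35, an interferon-induced leucine zipper protein, Dhx58 and Dtx3l, each with an edgeR adjusted p of 1. Irf9 had 359, 153 and 162 CPM in acceptors at 300 min and 186, 149.8 and 150.2 CPM at 0 min. Oas1a had 1535, 458 and 392 CPM at 300 min and 586, 474 and 406 CPM at 0 min. In each gene 1 library stood far above the other two at 300 min. Ifi35 had 362, 149 and 85.9 CPM at 300 min and 183, 135 and 101 CPM at 0 min. Dhx58 had 208, 119.7 and 96.2 CPM at 300 min and 123, 117 and 80.4 CPM at 0 min. Dtx3l had 600.3, 255 and 182 CPM at 300 min and 333, 261 and 204 CPM at 0 min.

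That high value came each time from the acceptors of run 1 at 300 min, the library with the fewest reads of all 39 (8649169) and the fewest genes with reads (11951). It was the highest of the 18 acceptor libraries in 20 of the 44 genes and the lowest in 2, where 25.8% of all genes had it highest and 26.7% lowest. Within the list it was high for Irf7 (3521 CPM, against at most 2078 in the other 17), Irf9, Stat2, Oas1a, Ifi35 and Dtx3l. It was the lowest of the 6 run 1 acceptors for 18 genes, among them Isg15, Oasl1, Gbp2 and Ifit1. Without it the F test in acceptors still called 0 of the 44.

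Acceptors were finally compared with control at 0 min. None of the 44 genes was called by edgeR, DESeq2 or limma-voom, 0 had an unadjusted p under 0.05 by edgeR, and 0% of all genes were called. The median difference was −0.22 log2 units, between −0.94 for Gbp5 and 0.12 for Irf9. Gbp5 had 13.3, 7.38 and 7.03 CPM in acceptors and 25.0, 20.3 and 7.76 CPM in the control, with a 95% interval of −1.90 to 0.02. The values of acceptors and control overlapped in 43 genes. In Irf9 all 3 acceptor values lay above the control, as in 3.70% of all genes, and in 0 genes they lay below it, as in 3.36%. Intervals over the 44 reached from −1.97 to 0.85, so the test leaves room for differences of more than 2-fold.

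Genes upstream and beside the list were counted as well. Of 21 interferon ligand genes, only Ifnk was in the table, with 10 reads in 3 donor libraries and 0 reads in acceptors and control, too few to test. Of 14 receptor and signalling genes measured, 7 rose and 1 fell in donors against control, with a median of 0.68 log2 units, where 10.3% of all genes were called higher and 9.34% lower. Socs3, a feedback inhibitor of JAK kinases, was at 98.3 ± 17.4 CPM in donors and 5.74 ± 3.78 CPM in the control (SD, n = 3 each; 4.10 log2 units, edgeR adjusted p = 9.17e-06). Stat3 rose by 1.43 log2 units and both kinases Jak1 and Jak2 rose, by 0.96 and 1.01.

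Of the receptor chains, both type I chains rose and 1 of the 2 gamma chains fell. Ifnar1 was at 114 ± 33.9 CPM in donors and 59.3 ± 16.2 CPM in the control (SD, n = 3 each; 0.94 log2 units, edgeR adjusted p = 0.00302). Ifnar2, its partner, rose by 0.67 log2 units. Ifngr1, the chain that binds interferon gamma, was at 39.8 ± 10.2 CPM in donors and 105 ± 29.3 CPM in the control, and fell by 1.40 log2 units (adjusted p = 8.73e-05). Ifngr2, its partner, was at 160 ± 23.1 CPM in donors and 105 ± 15.4 CPM in the control, without overlap, and was not called (0.61 log2 units, edgeR adjusted p = 0.116).

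Of 14 genes that act in the induction of interferons, 3 rose and 1 fell in donors against control. Ticam1, the adaptor of Tlr3 and Tlr4, rose by 1.52 log2 units, Irf8 by 0.94 and Trim25, the ligase that activates Ddx58, by 0.88, while Tlr4 fell by 0.76. Of 76 other interferon-stimulated genes measured, 12 rose and 2 fell in donors against control, with a median of 0.46 log2 units, where 10.3% of all genes were called higher and 9.34% lower. Cxcl9, a chemokine typical of interferon gamma, was at 366 ± 47.9 CPM in donors and 21.8 ± 14.4 CPM in the control (SD, n = 3 each; 4.07 log2 units, edgeR adjusted p = 8.05e-05). Cd274, or PD-L1, rose by 3.76 log2 units and the chemokine Ccl5 by 2.88. Gbp4 and Gbp6 rose by 2.61 and 2.13. Ly6e and Ube2l6, the conjugating enzyme of the Isg15 pathway, fell by 0.89 and 0.78. Cxcl10 had 270 ± 70.5 CPM in donors and 464 ± 347 CPM in the control and was not called. Many genes of these lists also respond to other inflammatory signals. In donors against acceptors over all times the counts were 9 higher and 2 lower of 14, 7 and 3 of 14, and 53 and 3 of 76, in the order of the lists above, where 29.5% of all genes were called higher and 33% lower.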

How the data were processed

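RNA of 39 libraries was sequenced from the 3′ end of transcripts with the QuantSeq 3′ FWD kit, per the labels' protocols, and read from one end over 100 bases. The authors deposited read counts per gene, which were the values tested here. They also deposited a normalized table, a signal that equals each library's counts divided by 1 factor (0.712 to 1.63). It was used only to check the order of populations. STAR, Partek, DESeq2 and the build mm10 are named per the submitters' processing notes, without version or role.

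The edgeR quasi-likelihood test (edgeR 4.0.16, R 4.3.3) was fitted once to all 39 libraries with TMM scaling and 1 mean per group. Of 16144 genes, 13034 passed filterByExpr and held 99.97% of reads. Benjamini-Hochberg adjustment ran over these genes with a threshold of 0.05, and the biological coefficient of variation was 0.383. The steps were tested on simulated data with independent libraries and no difference between runs, so that test does not cover the run differences seen here. CPM uses TMM-scaled totals, except for the means of single cell type marker genes, which use total reads. Log2 CPM uses a prior count of 2. A count of 3 equals 0.181 to 0.414 CPM, for counting error only. A comparison of 3 libraries with 3 allows no exact permutation p below 0.1.

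The 44 genes and the other lists were chosen with earlier results of these data known, so no p was computed over a list. In each comparison all called genes were named up to 12, otherwise the 12 with the smallest adjusted p. Values in every library were given for the 5 genes with the smallest adjusted p in donors against control, for the 5 and 3 with the smallest p in the time tests of acceptors and donors, and as lowest, median and highest for the 5 of all times. The values of further genes were chosen after they were seen.

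Replicate numbers are accession order and pair nothing. For the runs of library numbers, deviations from group means correlated above 0.1 in 15 of 15 pairs of runs among acceptor times (0.102 to 0.447) and in 3 of 3 between acceptors and control, so the run pairs these libraries; the block changed no call there. Alternatives were RLE and total-count scaling, no or a stricter filter, the run as a block, limma-voom (limma 3.58.1), DESeq2 1.42.0, fits of only the groups compared, and leaving out each library. Leaving out each run and summing times within a run were added after seeing the data. Promoter and gene positions are on GRCm38. A withheld item is not reported here.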

Additional observations from a re-analysis of the deposited data

How the results depend on the processing

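No gene of the 44 that was called changed direction under any alternative. Against 10 calls for donors against control at 0 min, total-count scaling gave 6, of which 1 was lower, the replicate block by run of library numbers gave 21, leaving out run 2 gave 3, and leaving out single libraries gave 5 to 11. Against 15 calls for donors against acceptors at 0 min the same settings gave 9, 29, 5, and 7 to 16. Against 82 calls of 220 at the 5 later times they gave 46, 135, 25, and 68 to 94. Against 34 calls over all times single libraries gave 33 to 37. The cause was not tested, apart from the fewer samples when libraries are left out and the shift of all genes by −0.36, −0.34 and −0.34 log2 units under total-count scaling in the comparisons with control, with acceptors at 0 min and over all times. For donors against control 2 of 3 pairs of runs correlated above 0.1 (lowest 0.0982), and for donors against acceptors 8 of 18. Among donor times 13 of 15 did (lowest 0.0403). By that threshold the block was not read as a pairing there. At 0 min, 6 of 6 libraries of donors and control correlated best with their own run, and 4 of 6 of donors and acceptors. The fits without the block may therefore leave out a pairing of donors with control. DESeq2 gave 13, 17 and 34 calls for control, 0 min and all times, and limma-voom 11, 16 and 36. Of all genes, DESeq2 called 11.8%, 13.6% and 29.6% higher, and limma-voom 11%, 12.6% and 30.3%. In every alternative 3 of 10, 5 of 15 and 24 of 34 genes kept their call. With total-count scaling, the block and run 2 left out, 5.67%, 12.6% and 5.75% of all genes were called higher against control. Against acceptors at 0 min these shares were 6.74%, 14% and 7.51%. Without run 2 the 3 of 44 called against control thus lay near the share of all genes. No such share is given for single libraries left out, or for these settings at the later times. The counts of 0 for time and for acceptors against control stayed at 0. With 3 libraries a group and this spread, differences between acceptors and control of more than 2-fold were not excluded in genes with wide intervals.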
